A study of Mus musculus with 6 samples.

Results

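The transcripts of 2 macrophage identity genes, Csf1r and Adgre1, were followed in mouse bone marrow-derived macrophages with and without bacterial lipopolysaccharide (LPS). They were taken by identifier, ENSMUST00000025523_at for Csf1r and ENSMUST00000004850_at for Adgre1 (older symbol Emr1), and both were present among the 74007 transcript rows of the arrays. The gene names belong to these identifiers by the rule that chose them, because the files and the gene table at hand pair no Ensembl transcript with a symbol. Macrophages were grown from femoral marrow of female C57BL/6J mice, 8 to 12 weeks old and on normal chow, in the human form of macrophage colony-stimulating factor (rhM-CSF, a recombinant protein also called CSF-1) at 50 ng/mL. On day 7, 3 cultures received LPS at 10 ng/mL for 4 h and 3 received no stimulus, and total RNA of each was hybridised to 1 Affymetrix mouse exon array. The growth factor was in the medium of both groups, only adherent cells were carried forward, and 3 animals each gave a culture to both groups, per the series text.

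Csf1r encodes the receptor tyrosine kinase that binds CSF-1 and interleukin-34, and its signal keeps cells of the mononuclear phagocyte lineage alive and dividing. Macrophages cultured from marrow in CSF-1 depend on it, and human CSF-1 acts on the mouse receptor. Adgre1 encodes an adhesion G protein-coupled receptor with epidermal growth factor-like repeats, a surface antigen whose antibody has long been used to mark mouse tissue macrophages. LPS is the ligand of the receptor TLR4 and is known to strip the CSF-1 receptor protein from the macrophage surface by proteolysis. The arrays measured RNA and not protein, so they do not bear on that step.

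The Csf1r signal was lower with LPS, by a small amount, and the Adgre1 signal showed no difference that passed the test. The Csf1r difference passed the test in the deposited values but not in 7 of 15 alternative settings. Expression is given as the deposited log2 array signal, on which a difference of 1 is a doubling, and every difference is LPS minus unstimulated. The Csf1r signal with LPS was 77.1% of the unstimulated signal, and the Adgre1 signal was 90.9% of it. Of the 2 transcripts, 1 was called lower (limma, Benjamini-Hochberg adjusted p under 0.05 over all rows). Over all 74007 rows 23.2% were called lower, 8.75% higher and 32.0% in either direction. A count of 1 of 2 says nothing particular about these genes against that background.

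The Csf1r signal was 11.91, 11.90 and 11.75 in LPS arrays 1, 2 and 3, against 12.41, 12.00 and 12.26 in unstimulated arrays 1, 2 and 3. The highest LPS array lay 0.093 below the lowest unstimulated array, so the groups did not overlap. Complete separation in this direction was found for 29.6% of all rows and for 29.8% of the brightest 10% of them. Means were 11.85 ± 0.090 with LPS and 12.22 ± 0.21 without (SD, n = 3 each), a difference of -0.37 ± 0.11 (SE; limma adjusted p = 0.0419). That is a signal 22.9% lower with LPS, with a 95% confidence interval of 7.30% to 35.8% lower. A halving of the Csf1r array signal thus lay outside the interval, which does not cover how the signal relates to the RNA amount. In a bulk culture a lower signal from less RNA per cell cannot be told apart from that of fewer cells carrying the transcript.

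The call for Csf1r stood close to its threshold. It was lost when LPS array 1, 2 or 3 or unstimulated array 1 or 3 was left out, with limma adjusted p between 0.0728 and 0.126 and differences between -0.40 and -0.28. Without unstimulated array 2 the difference was -0.49 (limma adjusted p = 0.00924). With each array centred on its own median, which adds 0.15 to the LPS minus unstimulated difference of every row, the difference was -0.23 and was not called (limma adjusted p = 0.129). After cyclic loess normalization it was -0.32 (limma adjusted p = 0.0881). A two-sided exact permutation test of the deposited Csf1r values alone gave p = 0.1, the smallest that it can give with these arrays.

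The Adgre1 signal was 12.75, 12.61 and 12.49 in LPS arrays 1, 2 and 3, against 12.79, 12.64 and 12.84 in unstimulated arrays 1, 2 and 3. The groups overlapped, with LPS array 1 above unstimulated array 2. Means were 12.62 ± 0.13 with LPS and 12.76 ± 0.10 without (SD, n = 3 each), a difference of -0.14 ± 0.086 (SE; limma adjusted p = 0.304, unadjusted p = 0.156). The 95% confidence interval ran from -0.34 to 0.068, that is from 78.7% to 105% of the unstimulated signal. The sign turned with each array centred on its median, where the difference was 0.011. That centring moved the median difference of all rows from -0.022 to 0.13. In the other 14 of 15 alternative settings Adgre1 was lower with LPS. At the SE of this row a measured difference of 0.28 in size would have been needed for a call.

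**Figure D1:**
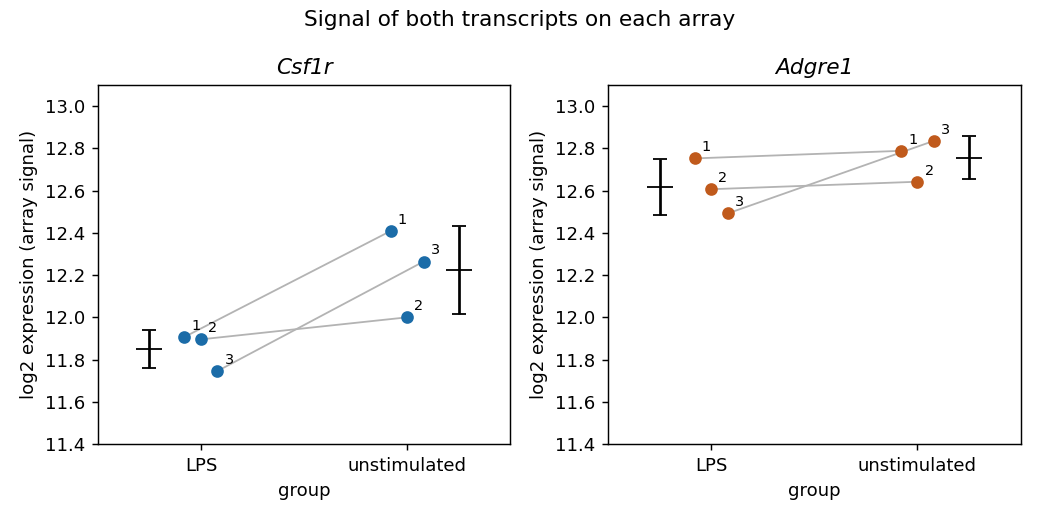
Log2 array signal (vertical axis) of Csf1r on the left and Adgre1 on the right, with LPS arrays left of unstimulated arrays in each panel. Points are single arrays with their replicate number, grey lines join arrays of the same number, and black bars are the mean and SD of 3 arrays. For Csf1r every LPS array lies below every unstimulated array, the nearest being 0.093 apart, and for Adgre1 the groups overlap. The panels share an axis that does not start at 0, and signals of different probe sets do not rank the genes by abundance.

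The same-numbered arrays gave differences of the same sign but of unequal size. For Csf1r the difference between LPS and unstimulated arrays was -0.50 for number 1, -0.10 for number 2 and -0.52 for number 3. Numbers 1 and 3 were thus close to each other, and number 2 showed a signal lower by 6.98% against 29.3% and 30.2% in the others. For Adgre1 the differences were -0.036, -0.035 and -0.34, so that most of its mean difference came from number 3. Without LPS array 3 the Adgre1 difference was -0.076 (limma adjusted p = 0.609).

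Both transcripts were at their lowest in the same arrays within each group. In LPS array 3 Csf1r was 0.10 and Adgre1 0.13 below the LPS mean. In unstimulated array 2 Csf1r was 0.22 and Adgre1 0.11 below the unstimulated mean. Among the brightest 10% of rows, the median deviation from the group mean was -0.034 in LPS array 3 and -0.0079 in unstimulated array 2. A median over 7401 rows varies less than a single row, so its smaller size does not set the 2 genes apart. Single rows among these had a median residual SD within groups of 0.152. The part of array-wide movement in the 2 genes' deviations was not tested.

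The change of Csf1r was set against that of Adgre1 within each array, which removes any shift common to all rows of an array. The Csf1r value minus the Adgre1 value was -0.84, -0.71 and -0.75 in LPS arrays 1, 2 and 3, against -0.38, -0.64 and -0.57 in unstimulated arrays 1, 2 and 3. Every LPS array lay below every unstimulated array, which held for 16.6% of the 74006 rows other than Adgre1 when each was set against it in the same way. Means were -0.77 ± 0.070 with LPS and -0.53 ± 0.14 without (SD, n = 3 each), so the Csf1r change minus the Adgre1 change was -0.24 on the log2 scale. A two-sided exact permutation test gave p = 0.1, the smallest that this test can give for 3 against 3 arrays. Within same-numbered arrays the difference of the changes was -0.47, -0.069 and -0.17, and a sign-flip permutation test gave p = 0.25, the smallest it can give for 3 pairs. The 2 values alone do not show that either transcript kept its level.

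Both rows lay far above the lower end of the signal scale, so that end left room for a fall. Csf1r lay between 5.51 and 5.67 above the 1st percentile of its array with LPS and between 5.77 and 6.19 above it without. Adgre1 lay between 6.25 and 6.51 above it with LPS and between 6.41 and 6.60 without. Both were also among the brightest rows of each array. Between 434 and 1399 rows were brighter than Csf1r, and between 185 and 409 were brighter than Adgre1. Whether a fall in RNA is measured in full at such bright signals was not tested. For the macrophage label these 2 markers were the only ones that could be read, and both gave a signal far above the lower end of the scale in all 6 arrays. The defining markers of neutrophils, dendritic cells, lymphocytes and fibroblasts could not be looked up without gene names, so the purity of the cultures was not analysed here.

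Rows of similar signal moved to a comparable extent. Ranked by mean signal into 10 bins of equal size, both transcripts fell into the brightest, whose 7401 rows had a median difference of -0.072 and quartiles of -0.32 and 0.29. In that bin 23.4% of rows were called lower and 22.9% higher with LPS. Relative to the bin's median the difference was -0.30 for Csf1r and -0.066 for Adgre1. In the same bin 20.5% of rows had a lower difference than Csf1r and 42.6% had a lower one than Adgre1. In absolute size the differences of 43.0% of the bin exceeded that of Csf1r and those of 73.7% exceeded that of Adgre1. Within 0.5 log2 units of the Csf1r mean signal, 20.4% of 1189 rows were called lower, and within the same distance of Adgre1 20.7% of 527 rows were.

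**Figure D2:**
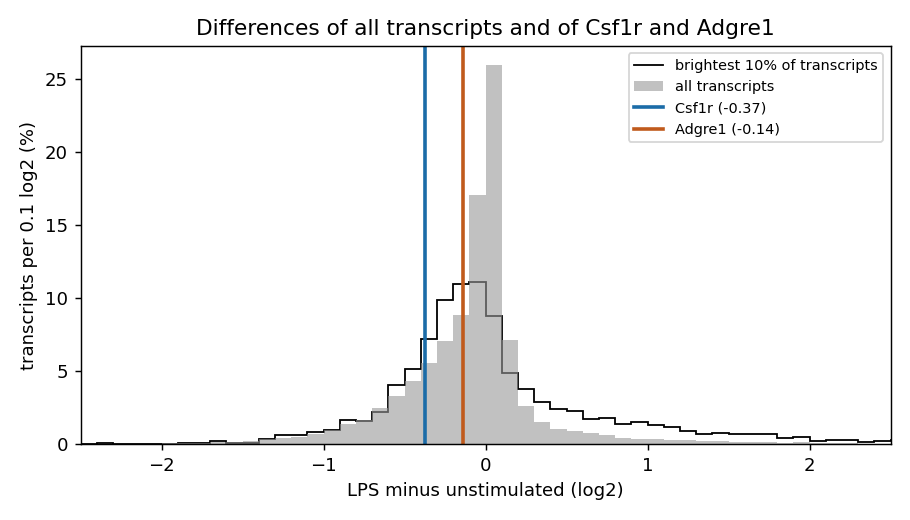
Share of transcripts (vertical axis, percent per 0.1 log2 units) by their difference between LPS and unstimulated arrays (horizontal axis, log2), for all 74007 rows in grey and for the brightest 10% as a black outline. Vertical lines mark Csf1r at -0.37 and Adgre1 at -0.14, both inside the bulk of both distributions. The Adgre1 sign turns with median centring. Differences beyond 2.5 in either direction are not drawn.

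The spread of both rows between arrays was ordinary for their signal. The residual SD within groups was 0.160 for Csf1r and 0.117 for Adgre1, against a median of 0.152 in the brightest bin. In that bin 53.8% of rows had a smaller residual SD than Csf1r and 30.5% had a smaller one than Adgre1. Over all rows the median was 0.0969, and limma drew both estimates toward a prior SD of 0.0857. With a prior that follows the signal level and robust eBayes together, the SE of the Csf1r difference was 0.12 in place of 0.11 and its limma adjusted p was 0.0473.

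**Figure D3:**
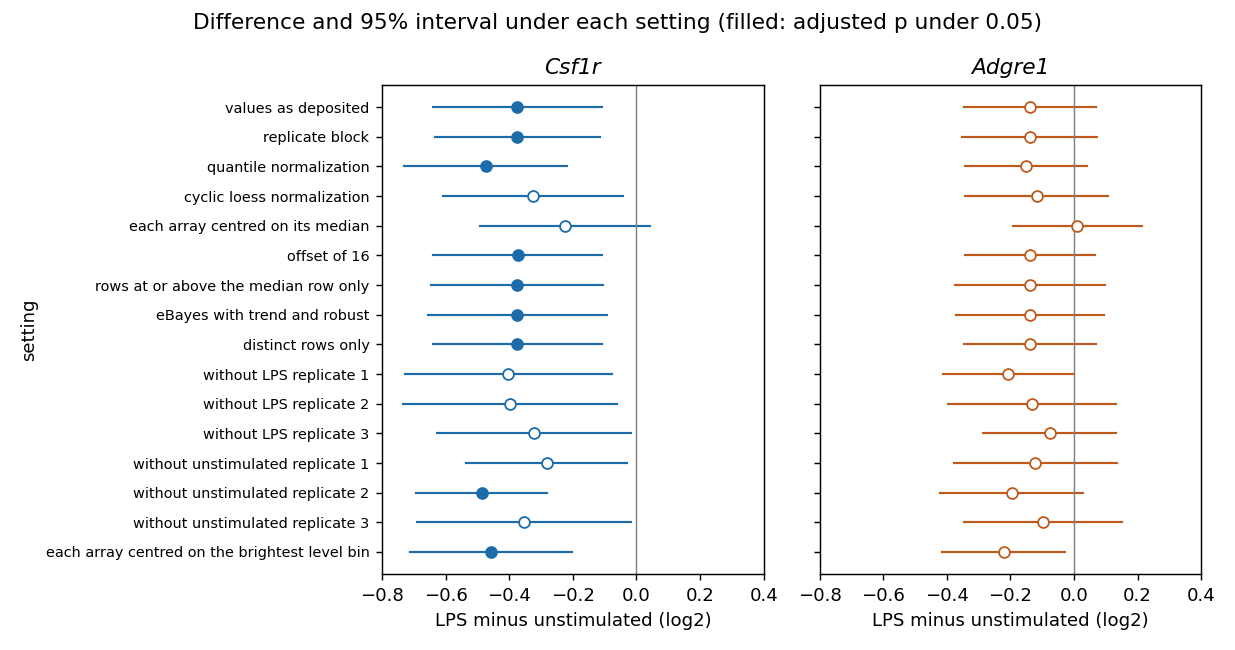
Difference between LPS and unstimulated arrays (horizontal axis, log2) with its 95% confidence interval for Csf1r on the left and Adgre1 on the right under the deposited values and 15 other settings (vertical axis), filled where the limma adjusted p was under 0.05. Csf1r stayed below 0 in all 15 and lost its call in 7, of which 5 left out an array. Adgre1 was called in none of them and turned to 0.011 with median centring.

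The rows with the most similar pattern over the 6 arrays were sought by the root mean square difference between values centred on each row's own mean. The row closest to Csf1r was ENSMUST00000115268_at, at a root mean square difference of 0.0078. It averaged 11.94 ± 0.094 with LPS and 12.33 ± 0.21 without (SD, n = 3 each), a difference of -0.39 (limma adjusted p = 0.0399). Next came ENSMUST00000104882_at at 0.028, a dimmer row with 7.63 ± 0.11 with LPS and 7.98 ± 0.19 without (SD, n = 3 each), a difference of -0.35 (limma adjusted p = 0.0455). The distance between Csf1r and Adgre1 was 0.147 by this measure. These rows were picked for their likeness to Csf1r, so their calls add no evidence to it.

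Closest to Adgre1 were ENSMUST00000086763_at at 0.0065 and ENSMUST00000081124_at at 0.0087. The first averaged 12.49 ± 0.13 with LPS and 12.62 ± 0.097 without, and the second 12.44 ± 0.14 with LPS and 12.57 ± 0.099 without (SD, n = 3 each). Neither was called, at limma adjusted p of 0.331 and 0.341. A pattern with few features is easily matched, and 8.74% of all rows lay within 0.1 of Adgre1 against 1.65% within 0.1 of Csf1r. No row shared all 6 values with either gene. The 4 similar rows carry no gene name here, and whether they share probes with the gene they resemble was not tested, so they need not be separate measurements.

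**Figure D4:**
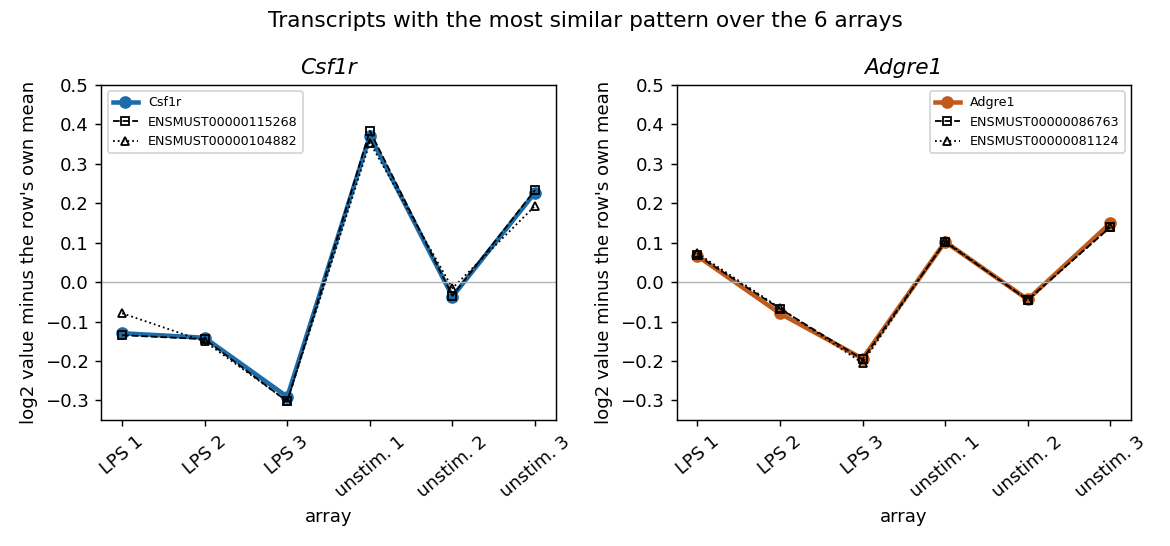
Log2 value minus the row's own mean (vertical axis) on each of the 6 arrays (horizontal axis) for Csf1r on the left and Adgre1 on the right, in colour, with the 2 most similar rows of each in black. The closest rows differ from Csf1r by 0.0078 and from Adgre1 by 0.0065 in root mean square, so their lines nearly coincide. The second rows differ by 0.028 from Csf1r and by 0.0087 from Adgre1. Whether the similar rows share probes with the gene was not tested.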

How the data were processed

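The authors deposited log2 expression values per transcript-level probe set, per the series text. PLIER and Affymetrix Power Tools are named in the submitters' processing notes. The sources used here do not state the probe-set definition, the genome build, any offset, the normalization across arrays, a detection level or an array batch. The gene table holds 49997 symbols and 0 Ensembl identifiers, so the pathway and marker lists drawn up for this comparison were not used.

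Groups follow the sample titles. limma 3.58.1 (R 4.3.3; lmFit, eBayes) was fitted to the deposited values of all 74007 rows without filter or further normalization. Tests were two-sided, p-values were adjusted by Benjamini-Hochberg over all rows, and the threshold was 0.05. The script was tested on simulated data. Each row had 4 residual and 2.58 prior degrees of freedom. The exact permutation test of single values ran over all 20 arrangements of the arrays. The series text says that each animal gave a culture to both groups. Each array's deviations from its group mean were correlated with those of its namesake, giving 0.50, 0.30 and 0.12. All exceeded 0.1, the minimum set for using the numbers as pairs. Differently numbered arrays were not correlated, so these values do not show that the numbers mark the animals. The limma fit to the deposited values and the exact permutation test took no account of pairs. Pairs entered the same-numbered differences, the sign-flip permutation test and the block setting. Named transcripts were both genes and the 2 rows nearest to each in pattern. Alternatives covered the block, normalization, centring, offset, dim-row filter, eBayes settings, distinct rows and each array left out. Members and lists were chosen with earlier results of these data known. Figures were drawn with matplotlib 3.10.9.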

Additional observations from a re-analysis of the deposited data

How the results depend on the processing

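Under 15 alternative settings Csf1r stayed lower with LPS in all 15 and was not called in 7, while Adgre1 was lower in 14 and called in none. Against -0.37 as deposited, the Csf1r difference was -0.32 after cyclic loess normalization and -0.23 with each array centred on its median, and neither was called by limma. For Adgre1, at -0.14 as deposited, median centring gave 0.011, a turned sign. Leaving out 1 array in turn gave Csf1r differences between -0.49 and -0.28, not called in 5 of 6 cases, each of which has fewer arrays by construction. It gave Adgre1 differences between -0.21 and -0.076. The Csf1r change minus the Adgre1 change, -0.24 as deposited, then lay between -0.29 and -0.16, with exact permutation p of 0.1 or 0.2. With the replicate number as a block the pairing changed no call: -0.37 for Csf1r (limma adjusted p = 0.0421) and -0.14 for Adgre1 (limma adjusted p = 0.279). Centring on the brightest bin, a setting added after the data had been seen, gave -0.46 for Csf1r (limma adjusted p = 0.0122) and -0.22 for Adgre1 (limma adjusted p = 0.0736). That centring lowered the difference of every row by the same amount. It moved the median difference of all rows from -0.022 to -0.10 and that of the brightest bin from -0.072 to -0.155. The place of the 2 genes among the other rows thus did not change. Background counts moved by more than 1.5 times with scaling: rows called higher numbered 6472 as deposited, 9768 after quantile and 10499 after cyclic loess normalization and 23708 with median centring, and rows called lower 17195 as deposited and 11053 after cyclic loess. The cause of these shifts was not tested. Gene lists and means over all rows of a gene were not run, as the rows have no gene names here. At each row's SE in the deposited values, a measured difference of 0.36 for Csf1r and of 0.28 for Adgre1 was needed for a call.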
